A study of Mus musculus with 1298 samples.

Results

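The Notch pathway was followed through 10 genes taken by name, namely the receptors *Notch1*, *Notch2* and *Notch3*, the ligands *Dll1*, *Jag1* and *Jag2*, and the transcriptional repressors *Hes1*, *Hes6*, *Hey1* and *Heyl*. All 10 were found among the 17634 genes of the 10x table, the 22894 genes of the Smart-seq2 (ss2) table and the 22938 genes of the bulk table. The cells came from mouse embryos carrying Pax7CreER and R26R-stop-EYFP, in which Cre is made by cells that express *Pax7* and, once tamoxifen has been given, switches on YFP for good in those cells and their progeny. Tamoxifen was given at E9.5 (75 µg/g), and YFP+ cells were sorted on 3 days (E12.5, E14.5, E16.5) from embryos whose heads, limbs and viscera had been removed. All groups described here share this genotype, this induction and the YFP sort. Several embryos were pooled for sorting, and the cells of 1 platform and 1 day are treated here as 1 pool, 6 pools in all. A day is 1 library in 10x and 7, 4 and 4 plate batches in ss2, for which it is not stated whether they share embryos, and cells within a pool are not replicates of that day. A freshly sorted bulk population of Pdgfra-negative and Cd36+ cells at E16.5, called Cd36+ below and measured as technical duplicates, was also available.

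Notch receptors are cut when a ligand on a neighbouring cell binds them, and the freed intracellular part works with Rbpj in the nucleus to switch on repressors of the Hes and Hey families. In skeletal muscle the pathway is known for keeping progenitors from differentiating, with *Heyl*, *Hey1* and *Hes1* among its targets in these cells. In the neural tube it is known for lateral inhibition, in which cells that begin to differentiate present *Dll1* while their neighbours keep *Hes1* and *Hes5*. *Hes6*, although related in sequence to *Hes1*, is known as a gene of differentiating neurons and myoblasts that works against *Hes1*.

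Of 3916 cells 3852 passed the quality limits, and 3831 were placed in classes named from marker genes while all 54 Notch pathway genes on the fixed list were kept out of the clustering. Early muscle (EM-like) comprised 18.3% of the kept 10x cells and 17.3% of the kept ss2 cells, late muscle (LM-like) 5.61% and 7.95% (74 cells in ss2), neural progenitors (NP-like) 7.19% and 8.92% (210 and 83 cells), and neurons (N-like) 15.3% and 20.4%. Early mesenchymal progenitors (EP-like) comprised 9.55% and 13.2% and late ones (LP-like) 20.4% and 15.1%, and both were pooled as MP-like cells. Dermal fibroblasts (DF-like), brown adipocytes (BA-like) and pericytes (PE-like) made up the rest of the named cells. Median depth per cell was 2185, 5930 and 1607.5 UMIs in 10x by day (E12.5, E14.5, E16.5), and 393416, 769833 and 829590 expected counts in ss2. Levels are given as CPM, the counts of a gene in the summed cells of a class in a pool scaled to a total of 1000000, and they were not divided by gene length, so that a level can be compared between cells but not between genes or platforms. A gene not seen in a 10x cell is in most cases a gene not sampled.

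The class names were checked against their markers. *Pax7*, which marks muscle progenitors, was found in 75.8% of EM-like and 5.4% of LM-like ss2 cells, and *Myog*, which drives myoblast differentiation, in 34.8% and 97.3%, so that EM-like cells included cells that had begun to differentiate. Among NP-like cells *Sox2*, a gene of neural progenitors, was found in 42.9% in 10x and 36.1% in ss2, and *Sox10*, a gene of Schwann and crest cells, in 0 of 210 in 10x and 2 of 83 in ss2. The list of Schwann and crest markers summed to 3776 CPM in NP-like cells in 10x, of which *Fabp7*, a gene that radial glia also carry, gave 3769, and to 1177 CPM in ss2, of which it gave 1176. The other 5 listed genes in 10x were at 0 to 2.27 CPM. The N-like cells of E12.5 differed between platforms, since *Sox2* was found in 29.6% of them in 10x and 1.6% in ss2 and *Fabp7* in 50.1% in 10x against 12.1% of the N-like ss2 cells of all days. At E14.5 the shares were 1.2% and 0% for *Sox2* and 7.5% and 10% for *Fabp7*, and E12.5 supplied 81.7% of the N-like cells in 10x and 33.7% in ss2. In EM-like cells, which should lack both, *Sox2* was found in 0.9% and *Fabp7* in 3.0% in 10x (median depth 3359 UMIs). The 10x libraries shared 3 cell barcodes.

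**Figure D1:**
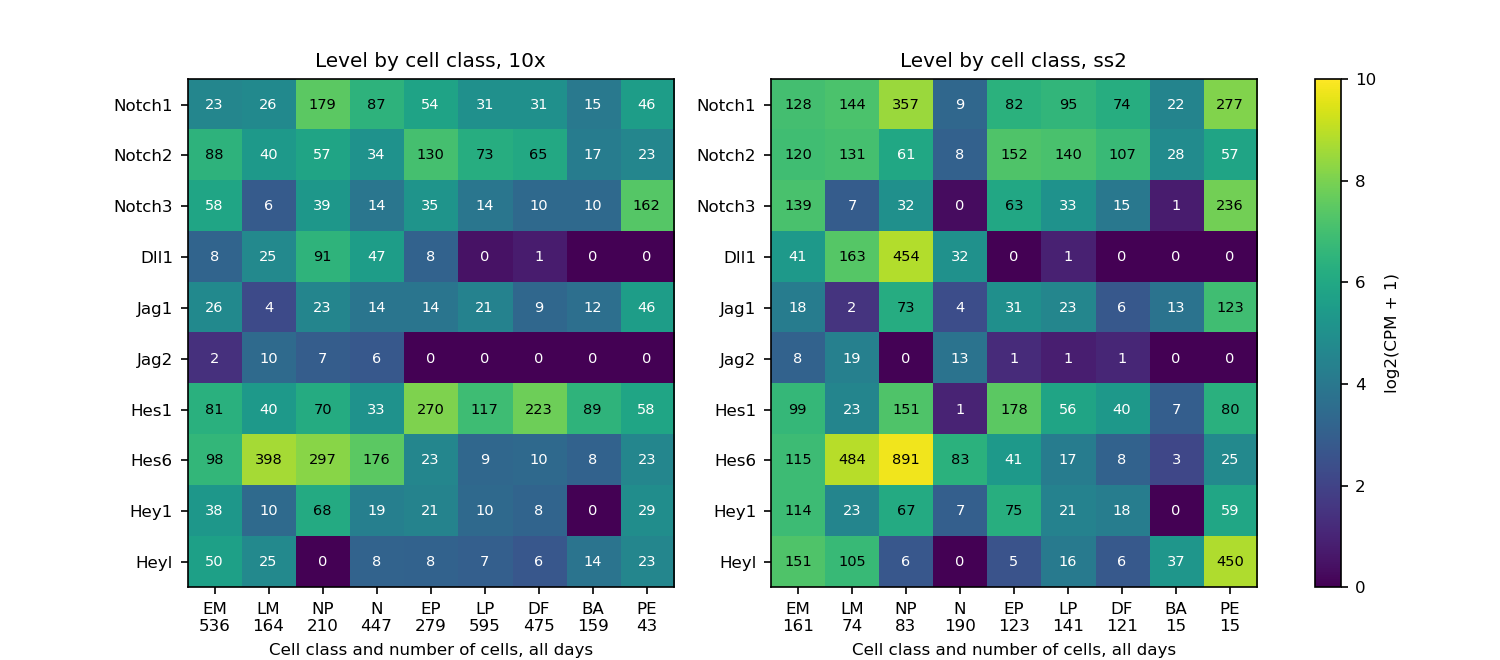
Heat map of the 10 Notch genes in each cell class with all days summed, for 10x (left) and ss2 (right); colour is log2(CPM + 1) and the number in each cell is the CPM. On both platforms *Notch3* and *Heyl* were high in EM-like and PE-like cells, *Hes6* in NP-like and LM-like cells and *Dll1* in NP-like cells. *Dll1* was also high in LM-like cells in ss2, but in 10x it was not above N-like cells there.

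The ligand *Dll1* and the repressor *Hes6* were the members that were higher in late than in early muscle, and their promoter windows are printed for that reason. RefSeq gave 2 transcription starts for each on GRCm38.p6, both on the minus strand, and each window is 300 bases long and holds the start, with most of it upstream. Capitals mark CANNTG, the E-box letters that factors of the Myod1 family and the Hes family can bind in some of its forms. The motif was searched on both strands, and being its own reverse complement it is counted once per position.

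Hes6 window 1, chr1:91413989-91414288: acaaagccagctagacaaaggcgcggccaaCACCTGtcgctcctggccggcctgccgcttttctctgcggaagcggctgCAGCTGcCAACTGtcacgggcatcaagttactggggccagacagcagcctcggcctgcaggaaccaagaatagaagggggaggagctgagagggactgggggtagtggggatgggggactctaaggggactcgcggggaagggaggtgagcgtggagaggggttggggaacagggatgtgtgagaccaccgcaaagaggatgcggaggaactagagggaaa
Hes6 window 2, chr1:91413173-91413472: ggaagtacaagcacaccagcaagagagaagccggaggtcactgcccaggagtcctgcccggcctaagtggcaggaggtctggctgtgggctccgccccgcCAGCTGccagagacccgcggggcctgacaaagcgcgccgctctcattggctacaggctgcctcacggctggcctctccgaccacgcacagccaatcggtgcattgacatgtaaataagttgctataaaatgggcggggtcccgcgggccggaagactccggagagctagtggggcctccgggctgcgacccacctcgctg
Dll1 window 1, chr17:15375774-15376073: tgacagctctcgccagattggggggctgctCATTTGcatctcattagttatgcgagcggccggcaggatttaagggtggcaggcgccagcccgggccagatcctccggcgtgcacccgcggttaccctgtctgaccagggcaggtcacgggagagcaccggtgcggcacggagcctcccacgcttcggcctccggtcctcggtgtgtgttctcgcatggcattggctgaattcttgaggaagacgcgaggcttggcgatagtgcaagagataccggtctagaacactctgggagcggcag
Dll1 window 2, chr17:15376883-15377182: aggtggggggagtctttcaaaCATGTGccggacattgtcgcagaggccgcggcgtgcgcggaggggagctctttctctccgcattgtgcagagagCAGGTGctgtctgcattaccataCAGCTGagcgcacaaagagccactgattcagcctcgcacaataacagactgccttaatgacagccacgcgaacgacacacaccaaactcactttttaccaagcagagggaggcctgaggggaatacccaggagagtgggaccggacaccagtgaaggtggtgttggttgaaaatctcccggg

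The 2 *Hes6* windows held 3 and 1 CANNTG and the 2 *Dll1* windows 1 and 3. The *Jag1* window held 1, and the windows of *Notch1*, *Notch2*, *Notch3* and *Jag2* held none, while 72.3% of 32851 mouse promoter windows of this length held at least 1. TGGGAA, the core letters that Rbpj binds, and CACGTG, a form of CANNTG, were in none of the windows of these 7 genes and in 25.6% and 7.15% of all windows. A match is a description of the letters and not of binding, and *Hes1*, *Hey1* and *Heyl* had no window. *Hes6* lies at chr1:91411483-91414038 and *Dll1* at chr17:15367354-15376872 in GENCODE vM21 on GRCm38, both on the minus strand, so the second *Hes6* window and the first *Dll1* window lie within the annotated genes.

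Late muscle was compared with early muscle to see how the pathway differs as muscle cells differentiate. Of the 10 genes, *Dll1* and *Hes6* were higher in LM-like cells and *Notch3*, *Jag1*, *Hes1* and *Hey1* were lower, while *Notch1*, *Notch2*, *Jag2* and *Heyl* did not pass the test. The sums of each class in a pool were compared within 5 pools with edgeR's quasi-likelihood test, the pool as a block and Benjamini-Hochberg adjustment over all genes tested. Of 10164 genes tested 24% passed (11.3% higher, 12.6% lower) against 6 of the 10 Notch genes. The median log2 difference was −0.33 over the Notch genes and 0.05 over all genes.

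*Notch3*, a receptor that muscle progenitors carry, stood in EM-like sums at 92.5, 42.6 and 100.9 CPM in 10x by day (E12.5, E14.5, E16.5) and at 166.8 and 59.004 CPM in ss2 at E14.5 and E16.5. In LM-like sums of the same pools it stood at 43.5, 0 and 0 CPM in 10x and at 7.24 and 0.946 CPM in ss2, and the zeros allow up to 4.89 and 40.5 CPM (3 counts). LM-like values were below EM-like values in every pool, although the 43.5 CPM at E12.5, which rest on 5 UMIs, lay just above the lowest EM-like value of another day. The log2 difference was −4.51 ± 0.47 (SE, n = 5 pools), with an adjusted p of 1.11e-08 by edgeR, and −2.93 in the 10x pools alone. Among ss2 cells *Notch3* was found in 83.9% of EM-like and 13.5% of LM-like cells.

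*Notch1* and *Notch2*, the other receptors, were measured in both muscle classes in every pool. *Notch1* stood at 12.9, 24.7, 32.4, 119.3 and 140 CPM in the 5 EM-like sums, in the same order, and at 52.2, 16.3, 67.5, 171.7 and 132.1 CPM in LM-like sums. It was higher in some pools and lower in others, and its log2 difference of 0.51 ± 0.28 did not pass the test (adjusted p = 0.20 by edgeR). *Notch2* stood at 105.4, 90.3, 46.9, 120.5 and 73.8 CPM in EM-like sums and at 78.4, 35.9, 13.5, 108.04 and 82.3 CPM in LM-like sums. Its values overlapped between the classes, and the log2 difference was −0.20 ± 0.27 (adjusted p = 0.64 by edgeR), and −0.94 with an adjusted p of 0.0492 in the 10x pools alone.

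The ligands moved in opposite directions. *Dll1* stood at 15.1, 7.29 and 3.605 CPM in 10x EM-like sums and at 35.8 and 61.6 CPM in ss2. In LM-like sums it stood at 0, 29.4 and 26.99 CPM in 10x and at 156.4 and 167.1 CPM in ss2. Late muscle was higher in 4 of 5 pools, and the exception was 10x at E12.5, where 0 of 35 LM-like cells had a *Dll1* UMI, which allows up to 26.1 CPM and so could not tell late from early muscle. The log2 difference was 1.92 ± 0.35 (adjusted p = 9.63e-05 by edgeR), and 1.55 with an adjusted p of 0.136 in the 10x pools alone.

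*Jag1* was near 20 to 30 CPM in early muscle on 10x, with 21.5, 28.04 and 21.6 CPM, and at 7.16 and 30.4 CPM in ss2. Late muscle held 8.71, 3.26 and 0 CPM in 10x and 2.95 and 0.411 CPM in ss2. These lie below early muscle in 4 pools, while the 0 of 10x E16.5 allows up to 40.5 CPM and so cannot tell the classes apart. The log2 difference was −3.01 ± 0.79 (adjusted p = 0.00496 by edgeR), and it lost the threshold without 10x E14.5 (adjusted p = 0.0692) or without ss2 E16.5 (−1.76, adjusted p = 0.0931) and grew to −4.95 without ss2 E14.5. *Jag2* was low in both classes, at 0 to 11.9 CPM in EM-like and 0 to 28.5 CPM in LM-like sums (the 10x zeros allow up to 6.45 and 40.5 CPM), and its log2 difference of 1.72 ± 0.71 did not pass the test (adjusted p = 0.077 by edgeR).

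*Hes6* had the smallest standard error of the 10 genes. EM-like sums held 131.2, 97.03 and 50.5 CPM in 10x and 135.98 and 87.1 CPM in ss2, and LM-like sums held 383.2, 420.9 and 229.4 CPM in 10x and 419.1 and 352.4 CPM in ss2. The lowest LM-like value lay above the highest EM-like value, and the log2 difference was 2.05 ± 0.19 (adjusted p = 1.53e-09 by edgeR).

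*Hes1* and *Hey1*, which repress bHLH activators, were lower in late muscle. *Hes1* stood at 141.97, 54.97 and 147.8 CPM in 10x EM-like sums and at 131.9 and 20.2 CPM in ss2, against 69.7, 34.3 and 40.5 CPM and 32.1 and 7.77 CPM in LM-like sums. The values of the classes overlapped across days, and the log2 difference within pools was −1.24 ± 0.26 (adjusted p = 0.000503 by edgeR), and −0.87 with an adjusted p of 0.0516 in the 10x pools alone. *Hey1* stood at 40.9, 39.8 and 21.6 CPM in 10x EM-like sums and at 127.2 and 79.2 CPM in ss2, against 17.4, 9.79 and 0 CPM and 12.3 and 46.8 CPM in LM-like sums. The 0 of 10x E16.5 allows up to 40.5 CPM, so that pool cannot tell the classes apart, and late muscle was lower in the other 4. The log2 difference was −1.77 ± 0.41 (adjusted p = 0.00136 by edgeR), −1.04 without ss2 E14.5, −2.68 without ss2 E16.5 and −2.72 with sums of at least 10 cells.

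*Heyl* differed less evenly between the pools. It stood at 60.2, 47.1 and 50.5 CPM in 10x EM-like sums and at 26.1, 26.1 and 13.5 CPM in LM-like sums. In ss2 it stood at 134.9 and 188.4 CPM in EM-like and at 65.6 and 195.3 CPM in LM-like sums, so the E16.5 pool was level. The log2 difference was −0.47 ± 0.27 (adjusted p = 0.23 by edgeR), and it passed without ss2 E16.5 (−0.90, adjusted p = 0.0359) and with sums of at least 10 cells (−0.81, adjusted p = 0.0485).

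**Figure D2:**
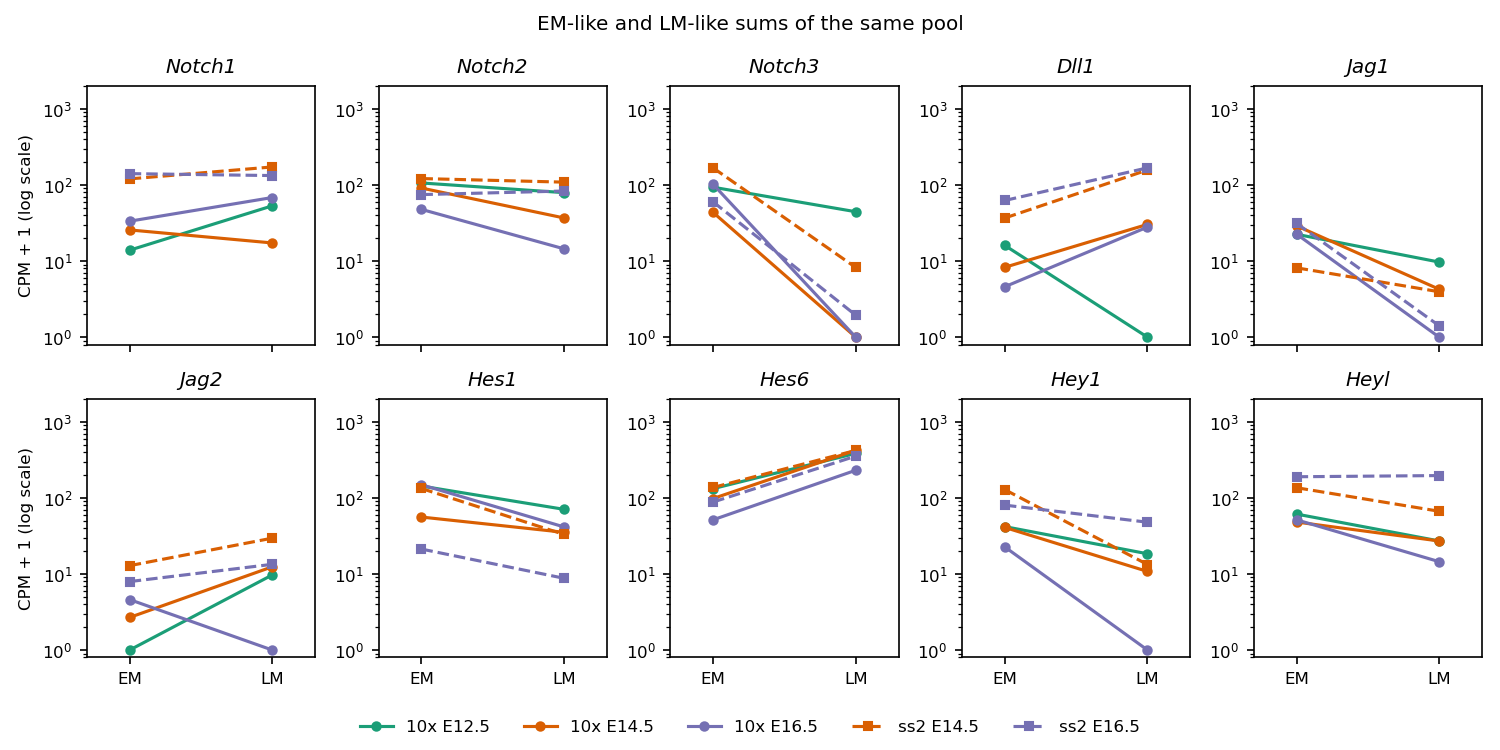
Levels of the 10 Notch genes in EM-like and LM-like sums of the same pool, as CPM + 1 on a log axis; each line joins the 2 classes of 1 pool, by platform and day. Lines for *Notch3*, *Jag1*, *Hes1* and *Hey1* fall in all 5 pools (the *Jag1* and *Hey1* zeros of 10x E16.5 allow up to 40.5 CPM), lines for *Hes6* rise in all 5, and the *Dll1* line of 10x E12.5 falls while the other 4 rise.

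Within the EM-like class *Dll1* and *Hes6* already went with *Myog* in single ss2 cells. *Dll1* was found in 24.2% of EM-like cells, and *Myog* in 76.9% of these against 21.3% of the others. The cells with *Dll1* were deeper, with a median of 864018 against 617399 counts, and the part of depth in this was not tested. *Myog* was found in 43.8% of EM-like cells with *Hes6* and 7.5% of those without. The opposite held for *Heyl*, where *Myog* was found in 25.7% of cells with it and 51.8% of cells without it, and *Pax7* in 80% and 67.9%, although the cells with *Heyl* were also the deeper ones (medians of 727577 and 457040 counts). In LM-like cells *Dll1* was found in 61 and *Hes6* in 73 of 74, and 60 cells held both. *Notch1* was found in 64 of these 74 cells, and 14.1% of the 64 also held *Notch3*, against 83.3% of the EM-like cells with *Notch1*. These are descriptions of cells from 3 ss2 pools, where any expected count above 0 was taken as found, and they carry no test.

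Of the 32 other pathway genes tested 10 passed, 6 higher and 4 lower in late muscle, against 24% of all genes. *Neurl1a*, a ubiquitin ligase of the Neuralized family that acts on ligands, was higher by 4.04 ± 0.43 on the log2 scale. *Lfng*, a glycosyltransferase that modifies receptors, was lower by a log2 value of −4.13 ± 0.71, and *Dtx4*, a Deltex ubiquitin ligase, by −4.25 ± 0.88. *Numbl*, which like Numb inhibits Notch, was higher by 1.52 ± 0.45, and *Aph1b*, a subunit of γ-secretase, was lower (−3.62 ± 1.25). *Numbl* lost the threshold without 10x E14.5 (adjusted p = 0.115), without ss2 E16.5 (0.0505), in 10x alone (0.0604) and with sums of at least 10 cells (0.86, adjusted p = 0.335). *Aph1b* lost it in 6 fits, without 10x E14.5 (0.138), without 10x E16.5 (0.151), with DESeq2 (0.0987), without the filter on low counts (0.0695), with platform in place of the pool (−2.13, adjusted p = 0.21) and with sums of at least 10 cells (−2.03, adjusted p = 0.35). *Dtx4* lost it with DESeq2 (0.103) and ranged from −1.86 in 10x alone to −6.74 without ss2 E16.5, with −2.62 without ss2 E14.5, and *Lfng* stood at −2.68 with each platform clustered alone.

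The difference between late and early muscle was also tested for a change with day. Of 10164 genes 0.669% passed, and 0 of the 10 Notch genes did by edgeR or by DESeq2, while 3 of the 10 and 709 of all genes had an unadjusted p under 0.05. *Notch3* came closest, its difference growing by −1.05 ± 0.28 log2 units per day (adjusted p = 0.056 by edgeR), and it passed without ss2 E14.5 (−1.14, adjusted p = 0.0187) and in 3 other fits. Without 10x E12.5 *Jag1* (−2.22 per day, adjusted p = 0.0322) and *Hey1* (1.05 per day, adjusted p = 0.0385) passed.

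Early muscle was compared with mesenchymal progenitors to see which of the genes set muscle apart from its sister cells. *Notch3*, *Dll1*, *Hes6*, *Hey1* and *Heyl* were higher in EM-like cells, and the other 5 genes did not pass the test. Of 13959 genes tested over 6 pools 24.7% passed (10.2% higher), and of the 10 Notch genes 5 were higher and 0 lower. The median log2 difference was 1.84 over the Notch genes and −0.15 over all genes. The EM-like sums are the ones used against LM-like cells.

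*Heyl* separated the lineages at every day. It stood at 60.2, 47.1 and 50.5 CPM in 10x and at 105.8, 134.9 and 188.4 CPM in ss2 in EM-like sums of the 3 days in order. MP-like sums held 7.85, 7.05 and 7.81 CPM in 10x and 4.69, 12.54 and 19.4 CPM in ss2. No MP-like value reached the lowest EM-like value, and the log2 difference was 3.45 ± 0.28 (n = 6 pools, adjusted p = 4.75e-05 by edgeR).

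*Notch3* was higher in EM-like cells in every pool, by 1.83 ± 0.17 on the log2 scale (adjusted p = 9.59e-05 by edgeR). MP-like sums held 33.4, 10.8 and 36.5 CPM in 10x and 67.04, 50.9 and 13.9 CPM in ss2, where EM-like sums held 255.1, 166.8 and 59.004 CPM. *Hes6* was higher by 2.69 ± 0.27 (adjusted p = 0.000168), with 23.5, 10.3 and 2.60 CPM in 10x MP-like sums and 41.3, 27.7 and 8.35 CPM in ss2, below every EM-like value. For *Hey1* the MP-like sums held 21.6, 10.8 and 2.60 CPM in 10x and 72.5, 15.2 and 26.9 CPM in ss2, where EM-like sums held 161.1, 127.2 and 79.2 CPM, and the log2 difference was 1.85 ± 0.31 (adjusted p = 0.00209). These genes were higher in EM-like cells in 6 of 6 pools each.

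*Dll1* was near the limit of detection in mesenchymal progenitors. MP-like sums held 7.85, 0.470 and 0 CPM in 10x, on 4, 1 and 0 UMIs, and 0, 0 and 1.64 CPM in ss2. EM-like sums were higher in 5 pools, while in 10x E16.5, where the MP-like 0 allows up to 7.81 CPM, the classes could not be told apart. They stood at 15.1, 7.29 and 3.605 CPM in 10x and 6.26, 35.8 and 61.6 CPM in ss2. The log2 difference of 6.19 ± 1.40 (adjusted p = 0.0099 by edgeR) depends on how the zeros are handled, and it missed the threshold with platform in place of the pool as a term (4.66, adjusted p = 0.051).

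*Hes1*, *Notch1*, *Notch2* and *Jag1* were expressed in both lineages. The *Hes1* levels ran from 44.4 to 270.8 CPM in MP-like and from 20.2 to 200 CPM in EM-like sums, with a log2 difference of −0.34 ± 0.26 (adjusted p = 0.37 by edgeR) that passed as lower in EM-like cells in the 10x pools alone (−0.70, adjusted p = 0.0172). *Notch1* differed by 0.11 ± 0.29, *Notch2* by −0.03 ± 0.20 and *Jag1* by −0.28 ± 0.33 on the log2 scale, with the classes overlapping in each. *Jag2* was listed at 0 in the 3 MP-like sums of 10x, where at most 1.41 to 7.81 CPM could have gone unseen, and did not pass the test (2.81 ± 1.84, adjusted p = 0.30), although it did without ss2 E12.5 (4.09, adjusted p = 0.00602).

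Of the 43 other pathway genes tested 11 passed, 6 higher and 5 lower in EM-like cells, a share near the 24.7% of all genes. *Lfng* (4.73 ± 1.06 on the log2 scale) and *Mfng* (4.72 ± 0.87), Fringe glycosyltransferases that modify Notch receptors, were higher, as was *Dtx4* (3.44 ± 0.36). *Dlk1*, a relative of the ligands that lacks their receptor-activating domain, was lower (−2.09 ± 0.12), and so was *Maml2* (−2.69 ± 0.45), a coactivator. *Dlk1* missed the threshold with platform in place of the pool (adjusted p = 0.056) and *Lfng* with each platform clustered alone (adjusted p = 0.061).

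**Figure D3:**
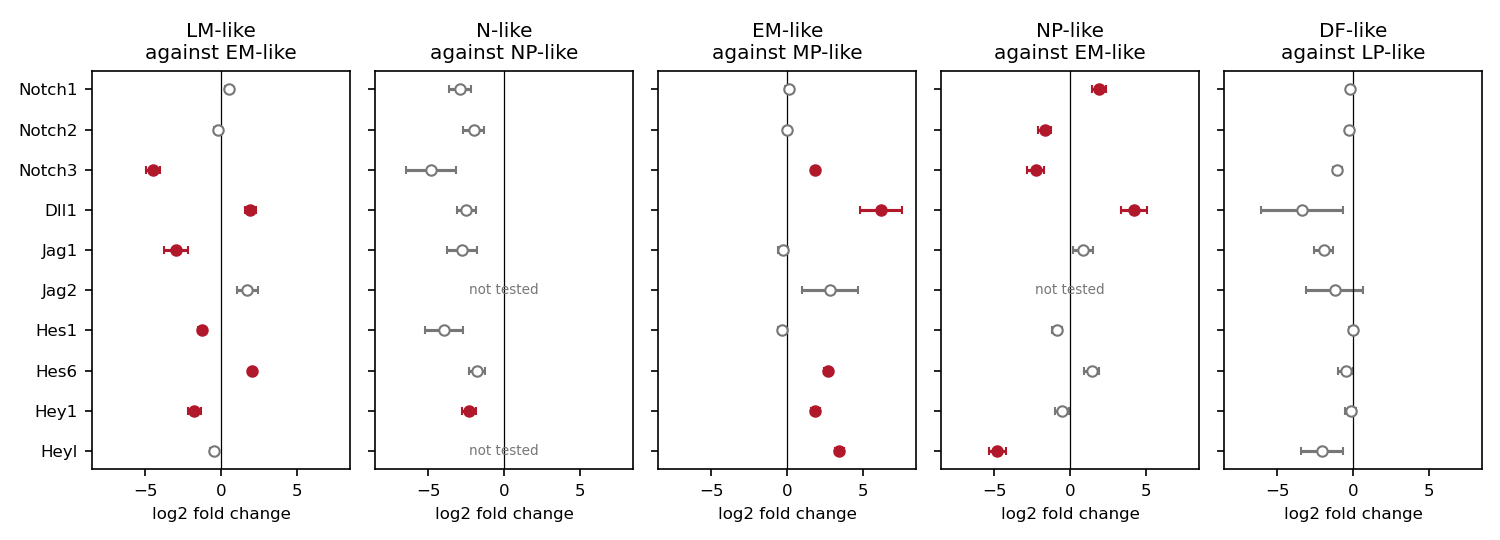
Log2 differences of the 10 Notch genes in 5 comparisons of classes, with bars of 1 SE from edgeR; filled red points are those with an adjusted p under 0.05, and genes that did not pass the filter on low counts are marked as not tested. Red points fall on both sides of 0 for LM-like against EM-like cells, only to the right for EM-like against MP-like cells, and nowhere for DF-like against LP-like cells.

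Neural progenitors were compared with early muscle, the progenitor-rich class of the other lineage, to see which parts of the pathway each uses. *Dll1* and *Notch1* were higher in NP-like cells and *Heyl*, *Notch3* and *Notch2* were lower. Of 10010 genes tested over 3 pools (10x E12.5, 10x E14.5 and ss2 E12.5) 8.67% passed (3.94% higher, 4.74% lower), and of the 9 Notch genes that passed the filter on low counts 2 were higher and 3 lower. *Jag2* was not tested. Of the genes that passed 45.4% were higher, and 65.5% without ss2 E12.5. The median log2 difference was −0.52 over these 9 genes and −0.12 over all genes.

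*Dll1* stood in NP-like sums at 98.8 CPM in 10x E12.5, 66.4 CPM in 10x E14.5 and 502.8 CPM in ss2 E12.5, against 15.1, 7.29 and 6.26 CPM in EM-like sums. The lowest NP-like value was above every EM-like one of these pools, with a log2 difference of 4.21 ± 0.83 (adjusted p = 0.0127 by edgeR), and 2.55 without ss2 E12.5. *Notch1* stood at 209.3, 77.5 and 380 CPM in NP-like and at 12.9, 24.7 and 121.4 CPM in EM-like sums, which is higher in 3 of 3 pools. Its log2 difference was 1.89 ± 0.47 (adjusted p = 0.0363), and it lost the threshold without 10x E12.5 (1.21, adjusted p = 0.271) and with sums of at least 10 cells (1.47, adjusted p = 0.0595).

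*Heyl* was at 0 in both 10x NP-like sums, which allows up to 8.72 and 33.2 CPM, and at 5.19 CPM in ss2, where EM-like sums held 60.2, 47.1 and 105.8 CPM. The classes did not overlap, and the log2 difference was −4.82 ± 0.57 (adjusted p = 0.000912 by edgeR), a fitted value that depends on the zeros and was −8.27 without ss2 E12.5. *Notch3* stood at 34.9, 55.3 and 27.9 CPM in NP-like and at 92.5, 42.6 and 255.1 CPM in EM-like sums, so that 10x E14.5 went the other way on 5 UMIs. Its log2 difference of −2.28 ± 0.54 (adjusted p = 0.03) rested on ss2 E12.5, without which it was −1.07 (adjusted p = 0.304). *Notch2* stood at 40.7, 121.7 and 46.1 CPM against 105.4, 90.3 and 223.3 CPM, also with 10x E14.5 going the other way, and its log2 difference of −1.67 ± 0.43 (adjusted p = 0.0396) lost the threshold without 10x E12.5 (adjusted p = 0.0973), without ss2 E12.5 (−0.87, adjusted p = 0.351) and with sums of at least 10 cells (−1.13, adjusted p = 0.139).

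*Hes6* was higher in NP-like cells in 3 of 3 pools, at 328.4, 199.2 and 1009 CPM against 131.2, 97.03 and 127.01 CPM, but its log2 difference of 1.42 ± 0.49 did not pass the test (adjusted p = 0.11 by edgeR). It passed in 5 of the other fits, among them the one without 10x E14.5 (2.03, adjusted p = 3.35e-10). *Hes1*, *Hey1* and *Jag1* did not pass, with log2 differences of −0.86 ± 0.33, −0.52 ± 0.46 and 0.85 ± 0.66, although *Hey1* did without 10x E14.5 (−0.98, adjusted p = 0.0491) and *Jag1* with pathway genes kept in clustering (1.56, adjusted p = 0.0485).

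Of the 35 other pathway genes tested 5 were higher in NP-like cells and 0 were lower by edgeR, against 8.67% of all genes passing. With DESeq2 6 were higher and 1 lower, against 1185 of 10010 genes passing. By edgeR 9 of the 35 and 2215 of the 10010 genes had an unadjusted p under 0.05. *Hes5*, the repressor that neural progenitors are known for, stood at 93.03 CPM in 10x and 465.7 CPM in ss2 over all NP-like cells, against 0.792 and 0.284 CPM in EM-like cells. *Dll3*, a ligand relative that acts within the cell that makes it, stood at 106.6 and 511.9 CPM against 1.58 and 0.906 CPM. *Nrarp* (5.02 ± 0.59 on the log2 scale), a feedback inhibitor of the pathway, *Mfng* (4.33 ± 0.88) and *Maml3* (2.60 ± 0.70), a coactivator, were the others. *Mfng* lost the threshold without ss2 E12.5 (2.43, adjusted p = 0.117) and *Maml3* without 10x E12.5 (adjusted p = 0.185), at resolution 0.4 and without the NP-like cells that border the neurons (both 0.0711).

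Neurons were then compared with neural progenitors. All 8 Notch genes tested were lower in N-like sums in 3 of 3 pools, but only *Hey1* passed the test by edgeR, while all 8 had an unadjusted p under 0.05 and 6 passed with DESeq2 (*Hey1*, *Notch1*, *Notch3*, *Dll1*, *Hes1* and *Hes6*). Of 9954 genes tested 3.38% passed by edgeR (0.482% lower), against 1 of the 8. Of the same 9954 genes 1984 had an unadjusted p under 0.05, and 933 passed with DESeq2 (340 lower). The median log2 difference was −2.64 over the 8 and 0.00 over all genes, and *Jag2* and *Heyl* did not pass the filter on low counts. The NP-like sums are the ones used against EM-like cells.

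*Hey1* stood at 58.1, 99.6 and 59.7 CPM in NP-like sums (10x E12.5, 10x E14.5, ss2 E12.5) and at 20.3, 11.1 and 9.43 CPM in N-like sums. The classes did not overlap, and the log2 difference was −2.35 ± 0.46 (adjusted p = 0.0335 by edgeR), which lost the threshold without 10x E14.5 (adjusted p = 0.15) or without ss2 E12.5 (adjusted p = 0.061). It was also lost when the NP-like cells at the border with the neurons were left out (−2.55, adjusted p = 0.0758), and then 0 of the 10 Notch genes tested passed. *Notch1* stood at 209.3, 77.5 and 380 CPM in NP-like and at 102.9, 3.71 and 19.7 CPM in N-like sums (−2.92 ± 0.71, adjusted p = 0.0628). *Dll1* stood at 98.8, 66.4 and 502.8 CPM and at 54.9, 3.71 and 44.8 CPM (−2.50 ± 0.61, adjusted p = 0.0626).

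*Hes1* showed how far the pools differed. It stood at 69.8, 55.3 and 160 CPM in NP-like sums and at 39.3, 0 (up to 11.1) and 2.21 CPM in N-like sums, so the fall was small in 10x E12.5 and large in the other pools (−3.96 ± 1.25, adjusted p = 0.13 by edgeR). *Hes6* stood at 328.4, 199.2 and 1009 CPM and at 194.4, 81.7 and 102.8 CPM (−1.82 ± 0.53, adjusted p = 0.10). Without 10x E12.5, the pool that supplied 81.7% of the N-like 10x cells, 8 of 9 Notch genes tested passed as lower, against 500 of 12610 genes. Without 10x E14.5 0 of 10 did, against 1 of 13074 genes. The share of N-like cells with *Sox2* or *Fabp7* is the measure that set 10x apart above, and its part in these levels was not tested. *Nrarp* was the only other pathway gene of 34 that passed (−3.27 ± 0.72, adjusted p = 0.0495), and it lost the threshold without 10x E14.5 (adjusted p = 0.178), with platform in place of the pool (0.115) or without the border cells (0.106), and stood at −1.80 without ss2 E12.5.

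In later neurons, the N-like cells of E14.5, *Hes6* was measured on both platforms. At E14.5 the 120 ss2 N-like cells held 69.8 CPM of *Hes6*, 23.7 CPM of *Dll1* and 18.6 CPM of *Jag2*, and 1.69 CPM of *Notch1* and 0.132 CPM of *Hes1*. Over the 190 N-like ss2 cells of all days *Hes6* was found in 64.2%, *Dll1* in 28.4% and *Hes1* in 1.1%. The N-like cells of 10x E14.5 held 81.7 CPM of *Hes6* on 22 UMIs. Each other Notch gene rested on at most 3 UMIs there. *Hey1* stood at 11.1 CPM, *Dll1* and *Notch1* at 3.71 CPM each and *Jag2* at 0 (up to 11.1 CPM).

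NP-like cells fell into an inner and a border part, which were separated after the data were examined. The 61 cells in 10x and 25 in ss2 that joined the neurons at a lower clustering resolution are the border cells, and the others are the inner cells. *Tubb3*, a neuronal tubulin, was found in 35.6% of inner, 85.2% of border and 91.9% of N-like 10x cells, whereas *Ina*, a neuronal filament gene, was found in 5.2%, 28% and 98.4% of the ss2 cells. *Fabp7* was found in 100%, 60% and 12.1% of the ss2 cells.

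The Notch genes did not all fall in the same order from inner to border cells and neurons. *Hes6* stood at 288.7 CPM in inner, 438.4 CPM in border and 194.4 CPM in N-like cells in 10x E12.5, and at 902, 1278 and 102.8 CPM in ss2 E12.5, so it was highest in the border cells. *Hes1* stood at 90.97, 11.0 and 39.3 CPM in 10x E12.5, where the border value rests on 1 UMI, and at 222.9, 0.664 and 2.21 CPM in ss2 E12.5, so it was already low there. Of the *Hes1* counts of the inner ss2 cells 42.3% came from 1 cell. *Notch1* stood at 229.4, 153.4 and 102.9 CPM and at 479.2, 130.7 and 19.7 CPM, in descending order on both platforms.

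*Hey1* was like *Hes1*, at 75.1, 11.0 and 20.3 CPM in 10x E12.5 and at 78.7, 11.8 and 9.43 CPM in ss2 E12.5. Its border value in 10x E12.5 rests on as few UMIs as that of *Hes1*. *Dll1* was level between inner and border cells in 10x (98.9 and 98.6 CPM) but not in ss2 (628 and 186.4 CPM). The other genes were summed over all days, so day and class are mixed in their levels. E14.5 supplied 20.7% of the inner, 12% of the border and 63.2% of the N-like ss2 cells. In these sums *Dll3* was ordered like *Hes6*, at 214.7 CPM in inner, 1305 CPM in border and 110 CPM in N-like ss2 cells. *Hes5* fell from inner to border cells like *Hes1*, at 637, 8.33 and 2.92 CPM. The border cells were defined from the same expression data, and these values are a description with no test.

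**Figure D4:**
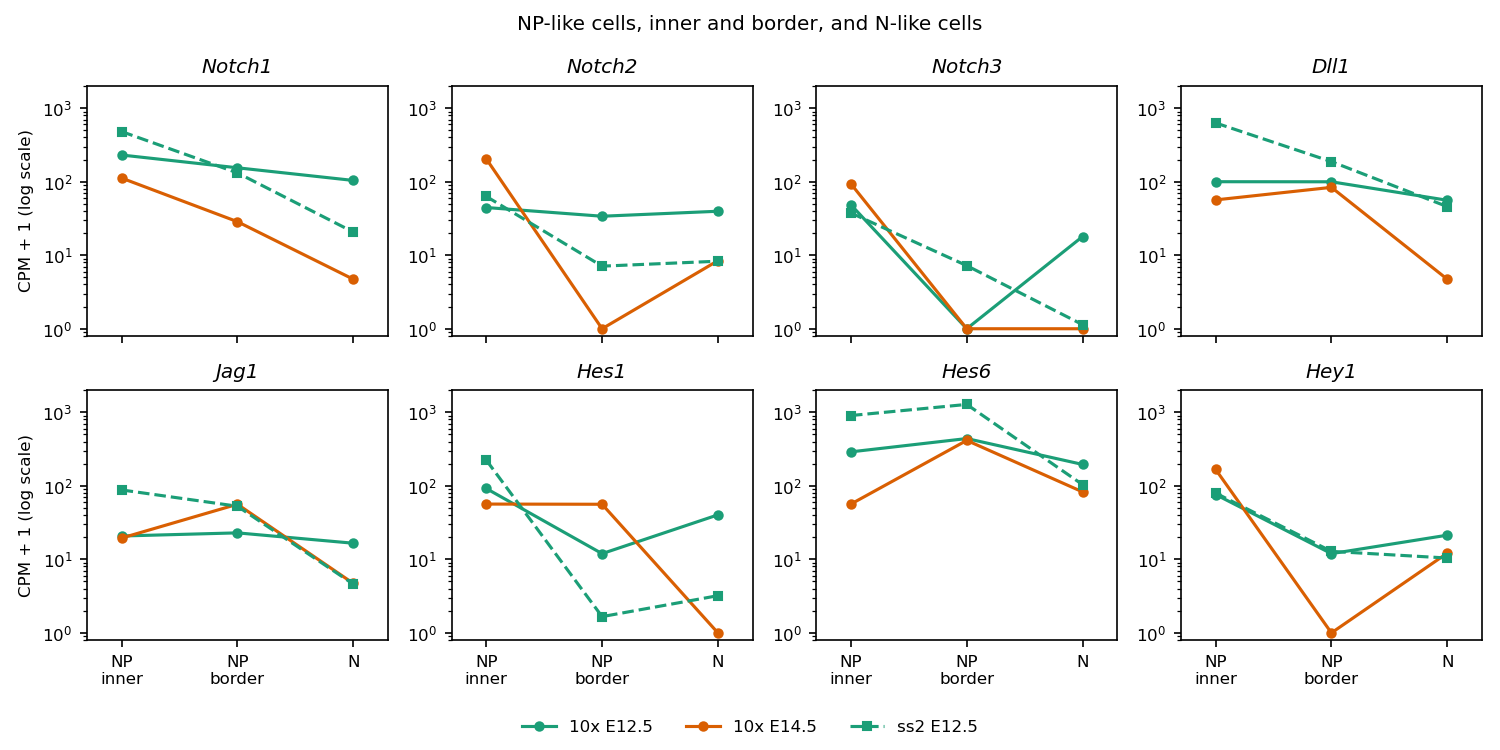
Levels of 8 Notch genes in inner NP-like, border NP-like and N-like cells, as CPM + 1 on a log axis, for 10x E12.5, 10x E14.5 and ss2 E12.5; lines join the classes of 1 pool, and the inner and border groups of 10x E14.5 hold 15 and 14 cells. *Hes6* peaks in the border cells in all 3 pools, and *Hes1* drops from inner to border cells in both E12.5 pools.

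*Notch1* was found in 73 of the 83 single ss2 NP-like cells, in 97.8% of the cells with *Dll1* and in 76.3% of those without. *Hes1* was found in 51.1% of the cells with *Dll1* and 36.8% of those without. *Sox2* was found in 56.8% of the cells with *Hes1* and 19.6% of those without, and the cells with *Hes1* were deeper (medians of 1421333 and 1151814 counts). Of the 54 N-like cells with *Dll1* 13 held *Notch1* and 1 held *Hes1*.

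Dermal fibroblasts were compared with late mesenchymal progenitors in 4 pools, 2 days on each platform. Of 14186 genes tested 11.5% passed by edgeR, and 0 of the 10 Notch genes did. By DESeq2 2 of the 10 and 2260 of all genes passed. By edgeR 2 of the 10 and 3481 of all genes had an unadjusted p under 0.05. The median log2 difference was −0.77 over the Notch genes and −0.04 over all genes. *Jag1* stood at 10.1 and 6.62 CPM in 10x DF-like sums at E14.5 and E16.5 and at 9.99 and 1.77 CPM in ss2, against 19.8, 26.3, 17.02 and 28.7 CPM in LP-like sums. The classes did not overlap, but the log2 difference of −1.95 ± 0.60 did not pass the test (adjusted p = 0.064 by edgeR), and it passed with DESeq2 (adjusted p = 0.0157), without ss2 E14.5 (−2.80, adjusted p = 0.00613), at resolution 0.4 and with pathway genes kept in clustering (−3.12 and adjusted p = 0.0045 in both).

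*Notch3* was the other gene close to the threshold (−1.05 ± 0.31, adjusted p = 0.053 by edgeR, 0.0118 with DESeq2), and it passed at resolution 0.4 and with pathway genes kept in clustering (adjusted p = 0.0304 in both). *Hes1* turned with the platform. It stood at 226.7 and 213.9 CPM in 10x DF-like sums against 104.5 and 186.9 CPM in LP-like sums, and at 53.6 and 26.4 CPM in ss2 against 72.04 and 44.4 CPM. Its log2 difference was −0.02 ± 0.25 over both platforms and 0.74 in 10x alone (adjusted p = 0.0265). Of the 43 other pathway genes tested 9 had an unadjusted p under 0.05, as did 3481 of all 14186 genes. By edgeR 3 of the 43 were lower in DF-like cells and 0 were higher (3 and 2 with DESeq2), against 11.5% of all genes. Those lower were *Dlk1* (−1.60 ± 0.19), *Bhlhe40* (−1.64 ± 0.40), a bHLH repressor, and *Dtx3* (−0.96 ± 0.19), a Deltex relative. *Bhlhe40* lost the threshold without 10x E14.5, without 10x E16.5 or without ss2 E16.5 (adjusted p of 0.122, 0.0924 and 0.0785) and stood at −2.82 in 10x alone and −2.75 with each platform clustered alone, and *Dtx3* lost it without 10x E14.5 (0.061), in 10x alone (0.198), with each platform clustered alone (0.328) or with platform in place of the pool (0.0815).

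The change from E12.5 to E16.5 was tested within early muscle and within mesenchymal progenitors, with day as a number and platform as a term over 6 sums each. In EM-like cells 5.38% of 12486 genes passed by edgeR, and 0 of the 10 Notch genes did. By DESeq2 1 of the 10 and 907 of all genes passed. By edgeR 2 of the 10 and 2163 of all genes had an unadjusted p under 0.05. In MP-like cells 6.31% of 14065 genes passed by edgeR, and again 0 of the 10 did. By DESeq2 1 of the 10 and 1832 of all genes passed. By edgeR 2 of the 10 and 3075 of all genes had an unadjusted p under 0.05. Each day is 1 pool per platform, so the day and the pool cannot be told apart.

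In early muscle the gene nearest to the threshold was *Notch2*, which stood at 105.4, 90.3 and 46.9 CPM in 10x and at 223.3, 120.5 and 73.8 CPM in ss2 from E12.5 to E16.5. It was lower at each later day on both platforms, by −0.27 ± 0.10 log2 units per day (adjusted p = 0.13 by edgeR, 0.0175 with DESeq2, 0.0334 without ss2 E14.5). *Dll1* went in opposite directions on the platforms, at 15.1, 7.29 and 3.605 CPM in 10x and 6.26, 35.8 and 61.6 CPM in ss2 (0.53 ± 0.21 per day, adjusted p = 0.17), and it passed without ss2 E14.5 (0.64, adjusted p = 0.0109). *Hes1* and *Notch3* passed as lower with day without 10x E16.5 (−0.69 and −0.44 per day, adjusted p of 0.0121 and 0.03), and *Hes1* also without ss2 E14.5 (−0.38, adjusted p = 0.0455).

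In mesenchymal progenitors *Hes6* was nearest, at 23.5, 10.3 and 2.60 CPM in 10x and 41.3, 27.7 and 8.35 CPM in ss2, which is lower at each later day on both platforms (−0.47 ± 0.15 per day, adjusted p = 0.095 by edgeR, 0.0169 with DESeq2, 0.0316 without ss2 E14.5). These sums are EP-like cells at E12.5 and LP-like cells at the later days. Of the other pathway genes *Dlk1* passed as higher with day in EM-like cells (0.80 ± 0.16 per day, 1 of 38) and with *Bhlhe40* in MP-like cells (0.76 ± 0.17 and 0.83 ± 0.17, 2 of 41). *Dlk1* in EM-like cells lost the threshold without 10x E12.5 (adjusted p = 0.175) or ss2 E12.5 (0.0524), and both genes in MP-like cells lost it without either of these pools (adjusted p from 0.0982 to 0.273). Without 10x E14.5 *Bhlhe40* reached 0.0513 and *Dlk1* 0.0661 in MP-like cells, and without 10x E16.5 *Dlk1* reached 0.0661. *Bhlhe40* fell to 0.46 per day without ss2 E16.5 (adjusted p = 0.248), 0.27 with each platform clustered alone (0.703) and 0.23 in 10x alone (0.695).

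**Figure D5:**
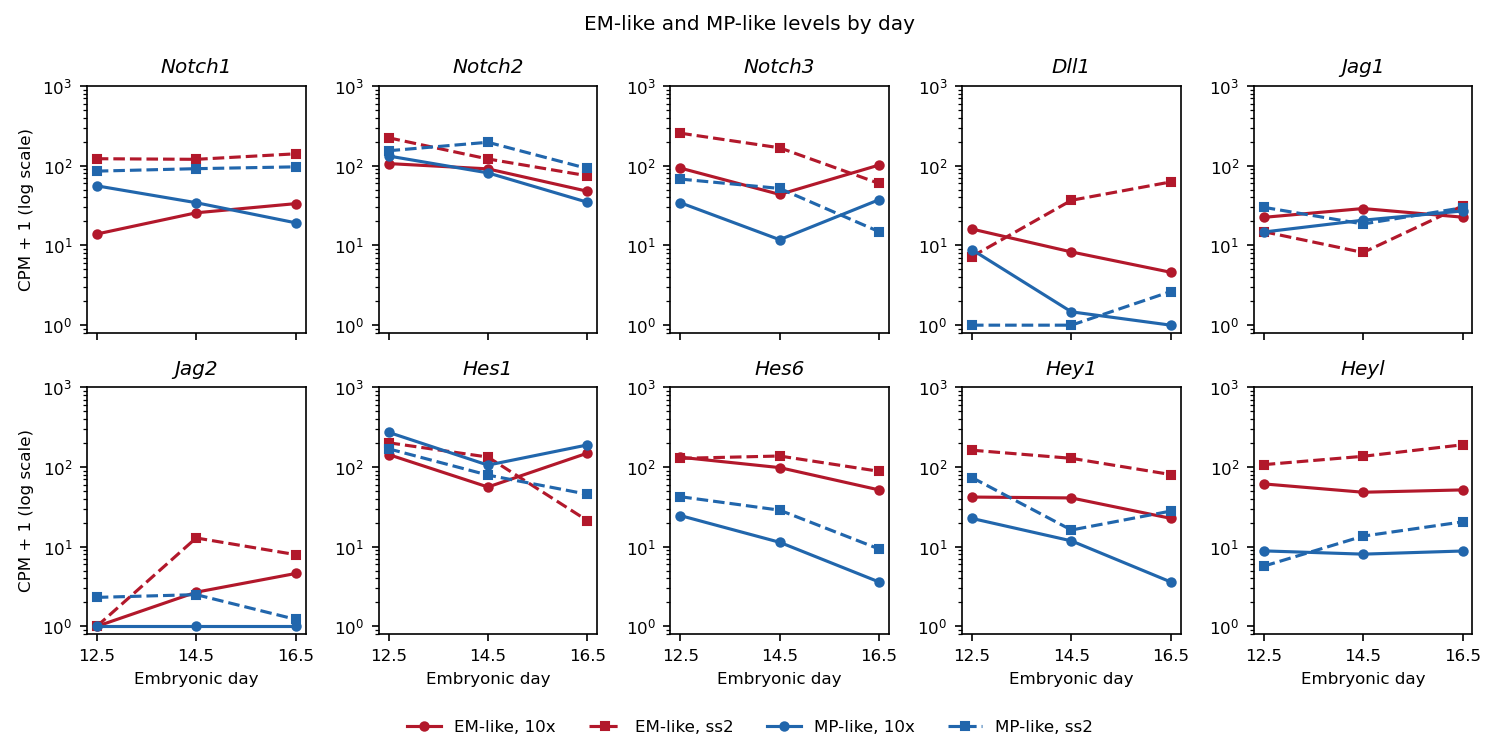
Levels of the 10 Notch genes by embryonic day in EM-like and MP-like sums of each platform, as CPM + 1 on a log axis. *Heyl* in EM-like sums lies above MP-like sums at every day on both platforms, and *Hes6* in MP-like sums declines from E12.5 to E16.5 on both.

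Pericytes and brown adipocytes entered no test, since 10x E16.5 alone held 20 or more cells of either, and their levels are given as a description. The 30 PE-like cells of 10x E16.5 held 348.6 CPM of *Notch3* and the 15 of ss2 E16.5 held 235.7 CPM, 450 CPM of *Heyl*, 276.8 CPM of *Notch1* and 122.6 CPM of *Jag1*, with *Dll1* and *Jag2* at 0 on both platforms (up to 55.05 CPM in 10x). The BA-like cells of 10x E16.5 held 87.3 CPM of *Hes1* and 13.9 CPM of *Heyl*, and *Dll1*, *Jag2* and *Hey1* were at 0 (up to 5.95 CPM each). Each is 1 pool per platform.

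The bulk Cd36+ population was sorted for Cd36, a fatty acid carrier of adipocytes, and against Pdgfra. In it *Heyl* stood at 45.1 and 65.7 CPM in the duplicate libraries, *Notch2* at 22.5 and 23.6 CPM, *Jag1* at 15.4 and 20.3 CPM and *Notch1* at 12.0 and 12.3 CPM. *Hes6* stood at 9.21 and 6.10 CPM, *Hes1* at 5.39 and 5.40 CPM, *Notch3* at 3.70 and 8.29 CPM and *Jag2* at 2.37 and 1.46 CPM. *Dll1* (0.483 and 0.182 CPM) and *Hey1* (0.442 and 0.607 CPM), both at 0 in BA-like 10x cells, stayed under 1 CPM. The duplicate libraries differed by more than counting error, with a chi-square of 43.5 per gene over 15766 genes. In a bulk sample fewer cells of a type and less RNA per cell cannot be told apart. The muscle gene *Myog* stood at 0.603 and 1.15 CPM, the pericyte gene *Rgs5* at 4.46 and 0.425 CPM and *Pecam1*, a gene of endothelial cells, at 79.1 and 104.8 CPM. *Pecam1* was also found in 99.4% of EM-like and 100% of LM-like ss2 cells, which should lack it, and the part of other cells in the bulk levels was not tested.

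Over the 13 ss2 class and day sums of at least 20 cells, the genes most like each of 6 members were listed by Pearson's correlation of log2(CPM + 1). For *Hey1* they were *Rrp1b*, *Pax7* and *Olfr1388* (0.94, 0.94 and 0.93), and for *Heyl* they were *Naa50*, *Des* and *Rpl15* (0.94, 0.93 and 0.93). *Hes6* went most closely with *Msi2*, *Rassf4* and *Ndufs5* (0.95, 0.94 and 0.94), *Hes1* with *Mpdz*, *Kif7* and *Swap70* (0.95, 0.92 and 0.92) and *Dll1* with *Btbd17*, *Mtch2* and *Ciao2b* (0.98, 0.94 and 0.91). For *Notch3* they were *Ung*, *Chek1* and *Cdca7l* (0.96, 0.96 and 0.94). The sums share plates and differ in depth, and the correlations are a description with no test.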

How the data were processed

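The deposited tables held, per the labels and the study's methods, UMI counts per gene and cell that the authors made with Cell Ranger for 10x, expected counts that they estimated with kallisto 0.44.0 for ss2, and read counts per gene for bulk, for which the counter is not given in the sources used here. The genome build named is mm10. None was normalized. Expected counts were rounded after summing.

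Cells were kept with YFP counts above 0, at most 8% mitochondrial counts, at least 4000 genes (ss2) and at most 15000 UMIs (10x). Of the ss2 cells named in the sample list (541, 352 and 384 by day) the table held 314, 326 and 342. Platforms were integrated with Seurat 5.3.0 (R 4.3.3, canonical correlation, 2000 variable genes, 30 components, Louvain resolution 0.8). The 18 clusters took the name of the marker list that scored highest (mean z-score), if it was at least 0.4 and at least 3 markers were found in 5% of cells. Clusters led by cartilage genes stayed unnamed, a rule added after the data were examined, and 21 cells are unnamed. Scrublet in scanpy 1.11.5 marked 8, 8 and 7 doublets in the 10x libraries, which were kept.

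Class sums of at least 20 cells were tested with edgeR 4.0.16 on 15147 shared genes (filterByExpr, TMM, quasi-likelihood, adjusted p under 0.05), and the procedure was tested on simulated data. SEs are the log2 difference divided by the root of F. For zeros of 10x sums the level that 3 counts allow is given, and it covers counting error only, and shares of cells depend on depth. The pool is the block because both classes of a pool come from the same library or set of plates. The correlation of their deviations was 0.05 to 0.37. In the class comparisons the p-values measure how far the difference within a pool varies between pools, which differ in day and platform. In the fits of day they measure the departure from a line, with platform or pool as a term. The 16 bulk columns of Thy1 sorts were not used, because their names do not show which sort they are, so the planned bulk tests were not run.

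The 10 members and all gene lists were chosen with earlier results of these data known. The genes named are the members, other pathway genes past the threshold (at most 5 per comparison, by size) and the 3 most similar genes for each of 6 members. Alternatives were resolutions of 0.4 and 1.2, pathway genes kept in clustering, each platform clustered alone, doublets out, 10x only, DESeq2 1.42.0, its size factors, no filter, sums of at least 10 cells, each pool left out, and platform in place of the pool. Some of these were the same fit, such as 10x only and without ss2 E12.5 in N-like against NP-like cells. Sums of at least 10 cells left the EM-like against MP-like fit unchanged, so tallies over the fits hold repeats.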

Additional observations from a re-analysis of the deposited data

Results flagged for a closer look

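In 30 sets of 4 to 6 pool ratios, 3 had a pool far from the others, where chance gives about 1 in 20. The ratios are log2 of (CPM + 10) within a pool. For *Dll1* in LM-like against EM-like cells, 10x E12.5 stood at −1.33 with the others between 1.19 and 1.86. No LM-like cell of that pool had a *Dll1* UMI, so the pool could not tell the classes apart. For *Hey1* in EM-like against MP-like cells, ss2 E14.5 stood at 2.45 with the others between 0.69 and 1.33. For *Notch2* in DF-like against LP-like cells, 10x E14.5 stood at 0.039 with the others between −0.40 and −0.33. *Aph1b*, a γ-secretase subunit, differed between days in its LM-like against EM-like difference, by −2.70 ± 0.67 log2 units per day (adjusted p = 0.030 by edgeR), a call that was lost without 10x E16.5 (adjusted p = 0.144), with DESeq2 (−1.97, adjusted p = 0.587) and with sums of at least 10 cells (−2.42, adjusted p = 0.166) and stood at −5.24 without 10x E12.5. All 10 Notch genes had more than 3 counts in both Cd36+ bulk libraries, which no comparison used.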

How the results depend on the processing

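The counts of genes passing the threshold depended on the pools used and on how cells were grouped, and they are given relative to the count reported. For LM-like against EM-like cells the count was 0.386 times as large with 10x only and 0.666 (without ss2 E16.5) to 1.09 times with each pool left out. For N-like against NP-like cells it was 2.07 times as large at resolution 0.4, 2.84 with pathway genes kept in clustering, 1.53 with each platform clustered alone, 1.68 without doublets, 0.598 with 10x only, 2.78 with DESeq2 (63.6% higher, against 85.7%), 1.52 with its size factors, 3.31 without the filter, 4.05 with sums of at least 10 cells, and 0.196 (without 10x E14.5) to 3.70 (without 10x E12.5) with each pool left out. For EM-like against MP-like cells it was 0.442 with each platform alone, 0.575 with 10x only and 0.555 to 1.35 with each pool left out. For NP-like against EM-like cells it was 1.62 at resolution 0.4 and without border cells, 2.22 with pathway genes kept, 2.22 with each platform alone, 0.457 with 10x only, 1.60 with sums of at least 10 cells, and 0.457 (without ss2 E12.5) to 2.31 (without 10x E14.5) with each pool left out. For DF-like against LP-like cells it was 0.365 with each platform alone, 0.398 with 10x only and 0.535 to 1.07 with each pool left out. For the day trend in EM-like cells it was 0.0744 with 10x only and 0.164 to 1.88 with each pool left out. For that in MP-like cells it was 0.278 with each platform alone, 0.320 with 10x only, 2.06 with DESeq2 (59.1% higher, against 72%), and 0.0631 to 1.91 with each pool left out. For the change with day it was 0.632 with each platform alone, 0.382 with 10x only, 0.279 with DESeq2, 1.56 without the filter, 0.279 with sums of at least 10 cells, and 0.0294 (without ss2 E16.5) to 4.15 (without 10x E12.5) with each pool left out. The share of calls that were higher in N-like than in NP-like cells, 85.7% in the fit reported, ran from 59.7% without 10x E12.5 to 98.5% without 10x E14.5. The causes of these shifts were not tested.

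Without the pool as replicate block the count was 0.692 times as large for LM-like against EM-like, 0.914 for N-like against NP-like, 0.664 for EM-like against MP-like, 1.18 for NP-like against EM-like and 0.464 for DF-like against LP-like cells, and of the Notch genes only *Dll1* in EM-like against MP-like cells lost its call. No paired analysis was possible for the bulk libraries because their Thy1 columns could not be mapped to samples, and their tests and alternatives were not run. Over the fits, the values of the Notch genes stayed on their side of the threshold in 1068 cases and gained a call in 66. They lost a call in 17 and reversed with a call in 2. The 1068 include values that changed sign where neither fit passed. *Notch1* in the day trend of MP-like cells, for example, kept its sign in 9 of 16 fits. The reversals with a call were *Hes1* in DF-like against LP-like cells, at 0.88 with each platform clustered alone and 0.74 with 10x only. DESeq2's size factors moved the median of all genes in LM-like against EM-like cells from 0.05 to −0.09.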
